A study of Zea mays with 6 samples.

Results

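Circadian clock genes were followed in leaves of field-grown maize (Zea mays), in wild type plants (the inbred line Q319) and in the transgenic line L100. The set was fixed by gene ID and holds 8 of the 39628 gene models in the deposited tables. It comprises the morning genes CCA1 (GRMZM2G014902) and LHY (GRMZM2G474769), the pseudo-response regulator PRR59 (GRMZM2G135446), the GIGANTEA genes gigz1a (GRMZM2G107101) and gigz1b (GRMZM5G844173), the pair GRMZM2G020081 and GRMZM2G148453 listed as TOC1, and the output gene conz1 (GRMZM2G405368). The reference gene table carries the names PRR59, gigz1a, gigz1b and conz1; the names CCA1, LHY and TOC1 came with the member list. Each line had 3 RNA-seq libraries from leaves at leaf stage 6, with 6458248 to 9922468 counts per library. The labels name neither the transgene of L100 nor the hour of harvest. They do not say whether the replicates were separate plants, so p-values speak only to the variation among these 6 libraries.

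The plant clock is a loop of repressors that act in turn over the day, best worked out in Arabidopsis. The MYB factors CCA1 and LHY are made around dawn and repress the genes of the evening. Pseudo-response regulators repress CCA1 and LHY through the day, GIGANTEA proteins build up late in the day, and TOC1, itself a pseudo-response regulator, represses the morning genes from dusk on. CONSTANS-like genes such as conz1 carry the time signal to the measurement of day length.

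Wild type replicate 3 stood apart from the other 5 libraries. Of 18702 genes with enough counts to be tested, 308 (1.65%) lay at least 4-fold below each other library in it and 99 (0.529%) at least 4-fold above. In any other library the corresponding counts were 0 to 29 genes. The filter on low counts can drop genes read in 1 library alone but keeps genes missing from 1 alone. The numbers below and above are therefore not on equal terms. Leaf markers, summed by cell type, were abundant in all libraries. The summed level of 6 mesophyll gene models ranged from 46980 to 76421 CPM (counts scaled to the library total) in wild type libraries, and from 83687 to 101361 CPM in L100 libraries. Nearly all of this sum came from pep1, pdk1 and mdh6, and the other models had at most 42.5 CPM in any library. Taken singly, 5 models were higher and 1 lower in L100. None passed an adjusted p of 0.05 between the lines (edgeR), against 0.834% of all tested genes. The 3 bundle sheath markers summed to 12044 CPM in wild type replicate 3 and to 18647 to 23521 CPM in the other libraries. The meristem markers kn1, lg3 and lg4a summed to at most 0.325 CPM and 5 floral gene models to at most 2.26 CPM. Of the root markers, rtcs1 was at 0 in all 6 libraries, while the root hair gene rth3 had 6.79 CPM in wild type replicate 3 and 0.616 to 1.14 CPM elsewhere. The part of these differences in the clock values below was not tested. CPM stands for counts per 1000000 counts of the library, with library sizes scaled by the TMM method. In whole leaves, fewer cells of a type and less RNA per cell cannot be told apart.

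The morning genes were among the more abundant transcripts in 5 libraries and nearly gone from wild type replicate 3. CCA1 had 569, 844 and 0.754 CPM in wild type replicates 1 to 3 and 508, 530 and 498 CPM in L100 replicates 1 to 3. The low value rested on 9 counts, against 3096 to 6608 counts elsewhere, and its 95% exact Poisson interval was 0.345 to 1.43 CPM; such intervals cover counting error only. CCA1 was thus 660-fold lower in wild type replicate 3 than in the library nearest to it, and the ranges of the 2 lines overlapped only through that library.

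LHY, the close partner of CCA1, gave the same picture. It had 642, 717 and 4.69 CPM in wild type replicates 1 to 3 and 899, 740 and 648 CPM in L100 replicates 1 to 3. The low value came from 56 counts and lay 137-fold under the lowest other library. A further gene model, GRMZM2G175265, shares its reference record with LHY and was looked up after the values of LHY were seen. The wild type libraries had 109, 168 and 0.670 CPM and the L100 libraries 165, 167 and 198 CPM, so it was 162-fold lower in wild type replicate 3 than in the nearest library. Among the other 5 libraries the highest level was 1.70 times the lowest for CCA1 and 1.40 times for LHY.

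PRR59, a repressor of the morning genes, was high where they were low. It had 8.93, 9.07 and 67.2 CPM in wild type replicates 1 to 3 and 10.4, 8.93 and 11.7 CPM in L100 replicates 1 to 3. The level in wild type replicate 3 (802 counts) was 5.72-fold above the next library, and the other 5 libraries lay within a factor of 1.31 of each other.

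Both GIGANTEA genes were high in wild type replicate 3 and level in the rest. The copy gigz1a had 383, 476 and 1075 CPM in wild type replicates 1 to 3 and 481, 468 and 382 CPM in L100 replicates 1 to 3. The copy gigz1b had 112, 107 and 342 CPM in wild type replicates 1 to 3 and 94.9, 123 and 102 CPM in L100 replicates 1 to 3. Wild type replicate 3 exceeded the next library 2.23-fold for gigz1a and 2.78-fold for gigz1b. In both genes wild type replicates 1 and 2 lay inside the range of L100. The copies are similar in sequence, and the tool used for counting is not given, so reads may have been split between them.

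The TOC1 genes were at the edge of detection outside wild type replicate 3. GRMZM2G020081 had 0.205, 0.767 and 11.1 CPM in wild type replicates 1 to 3 and 0.560, 1.79 and 3.54 CPM in L100 replicates 1 to 3. These values stand for 2, 6 and 132 counts in wild type and 4, 11 and 22 counts in L100. The interval of L100 replicate 3, 2.22 to 5.36 CPM, lay above those of wild type replicates 1 and 2, which reached up to 0.742 and 1.67 CPM. It overlapped that of L100 replicate 2, 0.892 to 3.20 CPM. Counting intervals leave out the variation between plants and libraries.

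GRMZM2G148453 was close to an on and off pattern. It had 0.821, 0 and 40.0 CPM in wild type replicates 1 to 3 and 0.140, 0.162 and 0 CPM in L100 replicates 1 to 3, from 8, 0 and 477 counts and from 1, 1 and 0 counts. A count of 0 allows up to 0.383 CPM in wild type replicate 2 and 0.483 CPM in L100 replicate 3, at a floor of 3 counts per library. The level in wild type replicate 3 was 48.7-fold that of wild type replicate 1, the next library. GRMZM2G148453 alone among the 8 genes failed the filter on low counts.

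The output gene conz1 had the smallest gap between wild type replicate 3 and the next library. It had 11.0, 7.54 and 16.8 CPM in wild type replicates 1 to 3 and 6.86, 3.90 and 6.92 CPM in L100 replicates 1 to 3. Its level in wild type replicate 3 was 1.53-fold that of wild type replicate 1. All 3 wild type libraries lay above all 3 L100 libraries. Over all tested genes, 8.47% had non-overlapping lines with L100 lower, so this separation is common in these data.

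**Figure D1:**
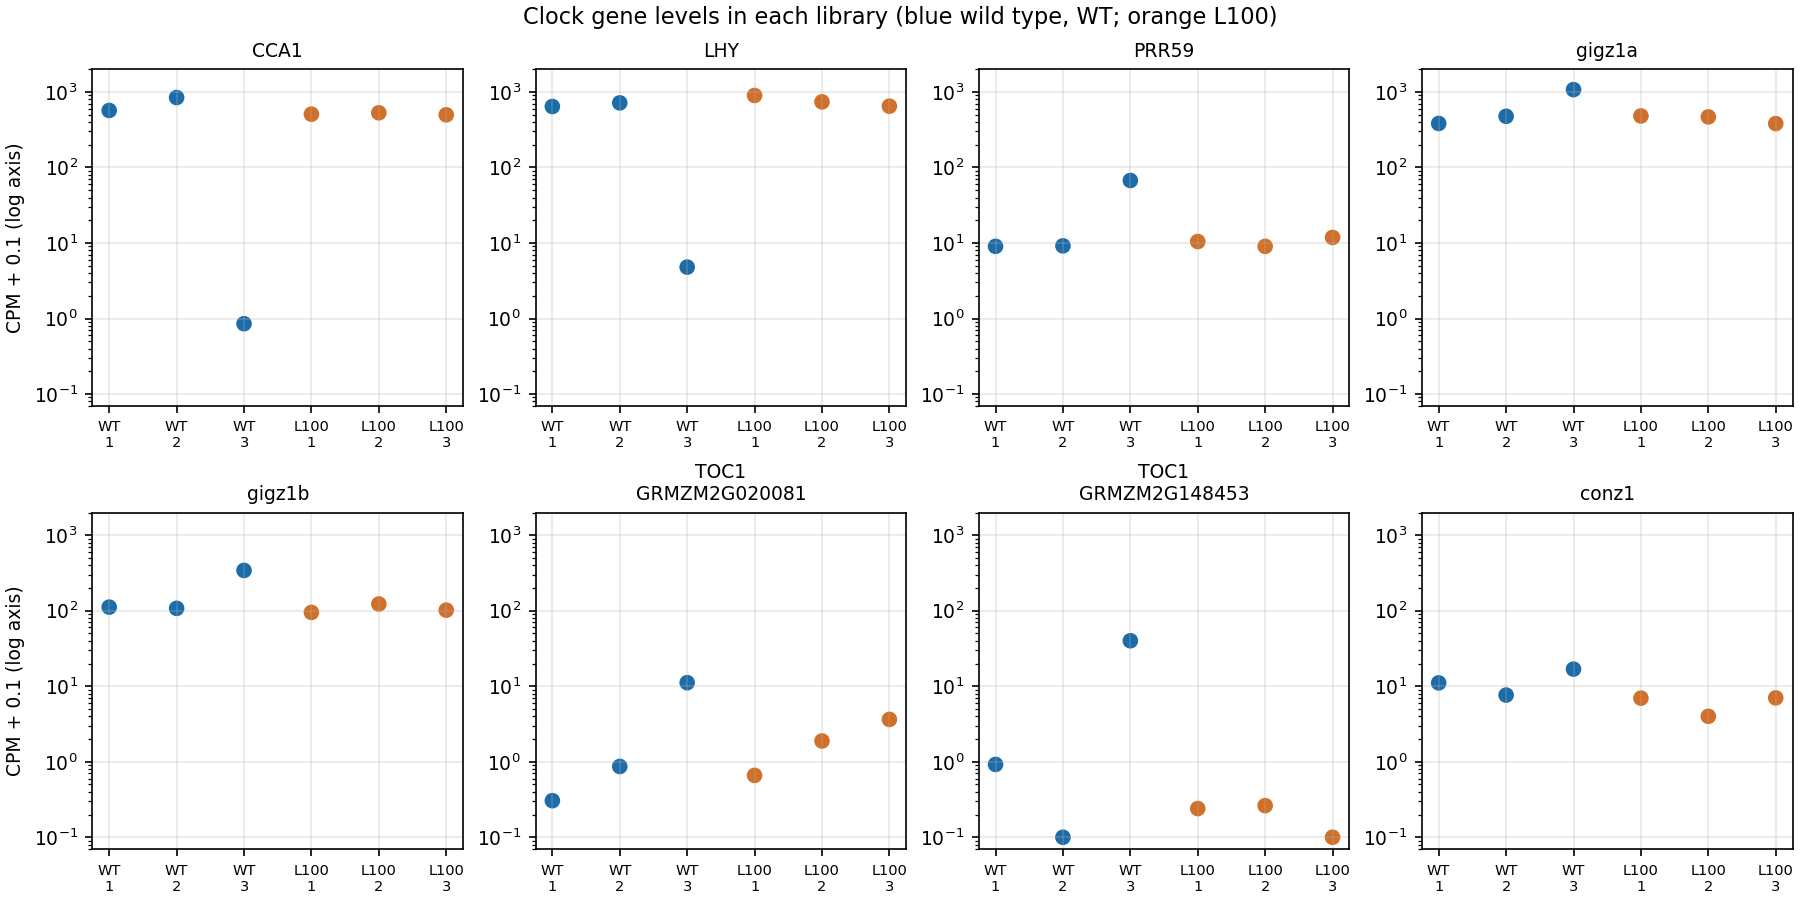
Level of each clock gene in each library, as CPM + 0.1 on a log axis shared by all panels; points are single libraries, blue for wild type (WT) and orange for L100. In wild type replicate 3, CCA1 (0.754 CPM) and LHY (4.69 CPM) are far below the other libraries, while the other 6 genes are highest there.

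Set against each other, the morning and evening genes split the libraries without overlap. The mean log2(CPM + 0.5) of CCA1 and LHY minus that of the TOC1 pair was 9.29 and 9.93 in wild type replicates 1 and 2 and 9.68, 8.99 and 8.64 in L100 replicates 1 to 3. In wild type replicate 3 it was -3.08, which is 11.7 log2 units under the lowest other library. The morning genes led in 5 libraries and the evening genes in 1. With the GIGANTEA genes as the evening side, the difference was 1.38 to 1.78 in the 5 libraries and -7.89 in wild type replicate 3. Computed from the deposited FPKM values, the difference to the TOC1 pair was 7.77 to 8.89 and -3.25. The FPKM values did not follow count over the listed gene length, and the length behind them is not known here. These differences are descriptive, with no test, since the genes were chosen with the pattern known. A ratio of genes within a library does not depend on how libraries are scaled to each other, apart from the added 0.5 CPM.

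**Figure D2:**
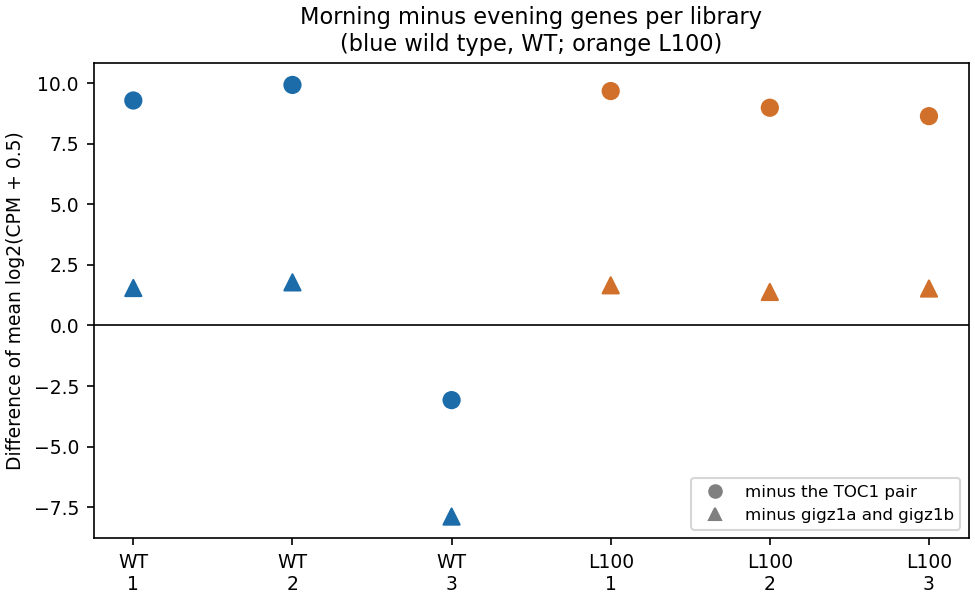
Mean log2(CPM + 0.5) of CCA1 and LHY minus that of the TOC1 pair (circles) or of gigz1a and gigz1b (triangles), for each library; blue is wild type (WT) and orange L100. Both differences are above 0 in 5 libraries and below 0 in wild type replicate 3 (-3.08 and -7.89).

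In the order of FPKM levels, the morning genes went from the top in 5 libraries to the bottom in wild type replicate 3. By the deposited FPKM, LHY ranked highest, then CCA1, then gigz1a and then gigz1b in each of the 5 libraries, with 277 to 396 FPKM for LHY, 174 to 298 for CCA1, 95.6 to 122 for gigz1a and 23.7 to 30.8 for gigz1b. PRR59 (3.84 to 5.21 FPKM) and conz1 (2.95 to 7.01 FPKM) followed and changed places between wild type and L100. In wild type replicate 3 gigz1a led with 272 FPKM, ahead of gigz1b with 85.2 FPKM, GRMZM2G148453 with 29.5 FPKM and PRR59 with 28.6 FPKM. LHY and CCA1 were last there, with 2.07 and 0.264 FPKM. Parts of this order depended on the measure. By CPM, CCA1 (844) was above LHY (717) and PRR59 (9.07) above conz1 (7.54) in wild type replicate 2. In wild type replicate 3, PRR59 (67.2 CPM) was above GRMZM2G148453 (40.0 CPM). For conz1, wild type replicate 3 led wild type replicate 1 by less in FPKM (8.04 against 7.01) than in CPM (16.8 against 11.0).

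The balance within the pairs of related genes was read from the same values. The FPKM ratio of gigz1a to gigz1b was 3.19 in wild type replicate 3, against 3.48 and 4.52 in wild type replicates 1 and 2 and 3.87 to 5.10 in L100. The FPKM ratio of CCA1 to LHY was 0.128 in wild type replicate 3, against 0.709 and 0.939 in the other wild type libraries. It was 0.450, 0.571 and 0.614 in L100, below both of the latter. This is a split of 3 against 2 libraries, with no test. In level, 26.5% of genes tested without wild type replicate 3 also did not overlap, in either direction. Of the TOC1 pair, GRMZM2G148453 had 5.48 times the FPKM of GRMZM2G020081 in wild type replicate 3. The ratio was 6.66 in wild type replicate 1 and 0 in wild type replicate 2, and 0.319, 0.151 and 0 in L100 replicates 1 to 3. Outside wild type replicate 3 these ratios rested on few counts, and they gave the pair no steady order.

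The low level of the morning genes in wild type replicate 3 was extreme among all genes tested. Ranked by the gap between wild type replicate 3 and the lowest other library on the log2(CPM + 0.5) scale, CCA1 had rank 1 of 18702 tested genes (gap 8.63), LHY rank 3 (6.95) and GRMZM2G175265 rank 4 (6.55). At a gap of at least 4-fold, 2 of the 7 tested clock genes were below each other library and 1, PRR59, was above, against 1.65% and 0.529% of all tested genes. The high values of the other tested members were less extreme in rank. GRMZM2G148453, 48.7-fold above the next library, failed the filter on low counts and was not ranked. That filter can drop genes read in 1 library alone but keeps genes missing from 1 alone. Among genes higher in wild type replicate 3, PRR59 had rank 44, GRMZM2G020081 rank 214, gigz1b rank 235, gigz1a rank 433 and conz1 rank 1296. For comparison, 24.9% of tested genes were highest and 23.9% lowest in that library. The members were chosen with earlier results of these data known, so ranks and shares are descriptive only. GRMZM2G175265 was added after its values were seen and shares its record with LHY, so it adds no separate support.

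**Figure D3:**
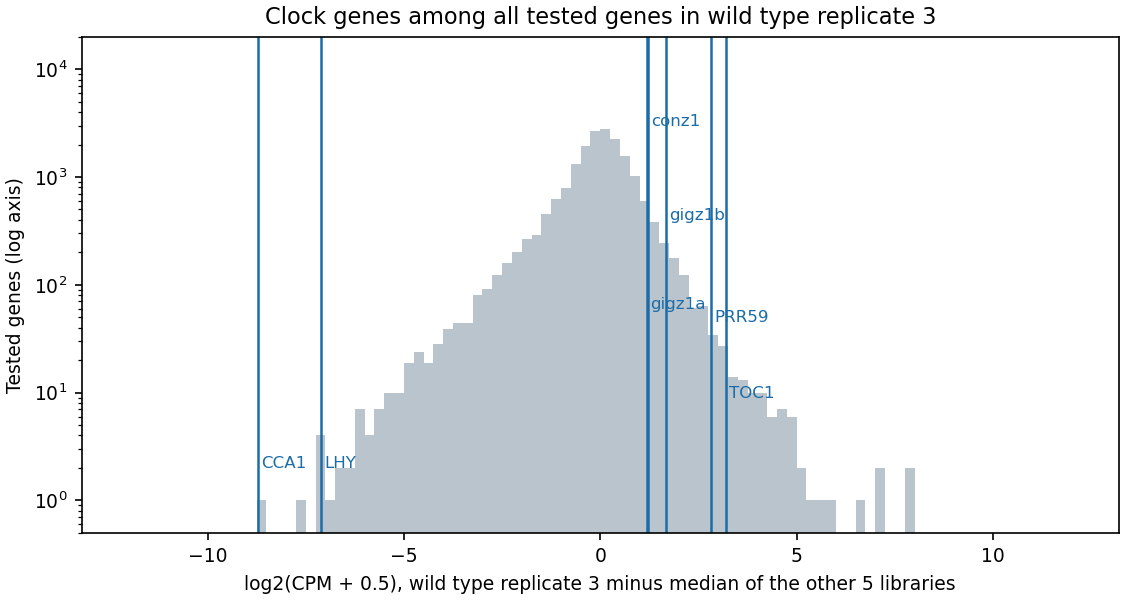
Distribution over 18702 tested genes of log2(CPM + 0.5) in wild type replicate 3 minus the median of the other 5 libraries, with a log axis for the number of genes; vertical lines mark the 7 tested clock genes. CCA1 and LHY lie at the far left end and the other 5 clock genes on the right side.

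The lines were then compared across all genes with edgeR's quasi-likelihood test. None of the 7 tested clock genes passed an adjusted p of 0.05, against 0.834% of all tested genes. DESeq2 and limma-voom also called 0 of 7. At an unadjusted p under 0.05 there was 1, conz1, where 10.0% of all tested genes passed. Its mean was 11.8 ± 4.66 CPM over wild type libraries and 5.89 ± 1.73 CPM over L100 libraries (SD, n = 3 per line). The log2 fold change was -0.998 ± 0.396 (SE, edgeR adjusted p = 0.459).

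Wild type replicate 3 set the size and the precision of the other fold changes. CCA1 averaged 471 ± 430 CPM over wild type libraries and 512 ± 16.5 CPM over L100 libraries (SD, n = 3 per line). Its log2 fold change was 0.12 with a 95% interval of -3.13 to 3.37, which took in both a large fall and a large rise. Without wild type replicate 3 it was -0.47, with an interval of -1.09 to 0.16 (edgeR adjusted p = 0.649). There the 2 wild type values, 569 and 844 CPM, lay above all 3 L100 values, as in 26.5% of all genes tested without that library, which did not overlap in either direction. Intervals were derived from the standard errors of the fit.

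For LHY the log2 fold change was 0.75 (interval -2.00 to 3.49) with all libraries and 0.16 (-0.45 to 0.78) without wild type replicate 3. For PRR59 it went from -1.46 (-3.24 to 0.32) to 0.20 (-0.47 to 0.87), a change of sign. The GIGANTEA genes lost nearly all of their difference. That of gigz1a went from -0.54 to 0.05 (interval -0.56 to 0.65) and that of gigz1b from -0.81 to -0.04 (-0.61 to 0.52). In LHY, PRR59 and both GIGANTEA genes, the intervals without that library leave room for differences of less than 2-fold in either direction.

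TOC1 GRMZM2G020081 changed sign as well, from a log2 fold change of -1.06 (interval -3.95 to 1.83) to 2.01 (-0.24 to 4.26, edgeR adjusted p = 0.570). The second value compares 2 and 6 counts in wild type with 4 to 22 counts in L100. For conz1 the value was -0.65 (-1.53 to 0.23) without wild type replicate 3. It ran from -1.23 to -0.65 when any 1 library was left out. As the lines did not overlap in conz1, its sign there was all but fixed in advance. GRMZM2G148453 was tested only with no filter, where its log2 fold change was -6.87 (edgeR adjusted p = 0.250); all but 8 of its 485 wild type counts came from replicate 3. Without wild type replicate 3, 0 of 7 clock genes passed the adjusted threshold (0.794% of all genes) and 0 of 7 had an unadjusted p under 0.05 (10.1% of all genes).

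Most of the tested clock genes varied little within L100, but conz1 and GRMZM2G020081 did not. The SD of log2(CPM + 0.5) over the 3 L100 libraries was 0.0462 for CCA1, 0.237 for LHY, 0.188 for PRR59, 0.182 for gigz1a and 0.192 for gigz1b. The median over all tested genes was 0.298, with no matching for abundance. The SD was higher for conz1 (0.432) and GRMZM2G020081 (0.969), the latter with few counts. Within wild type the SD was 5.27 for CCA1 and 4.06 for LHY, against a median of 0.452 over all tested genes.

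**Figure D4:**
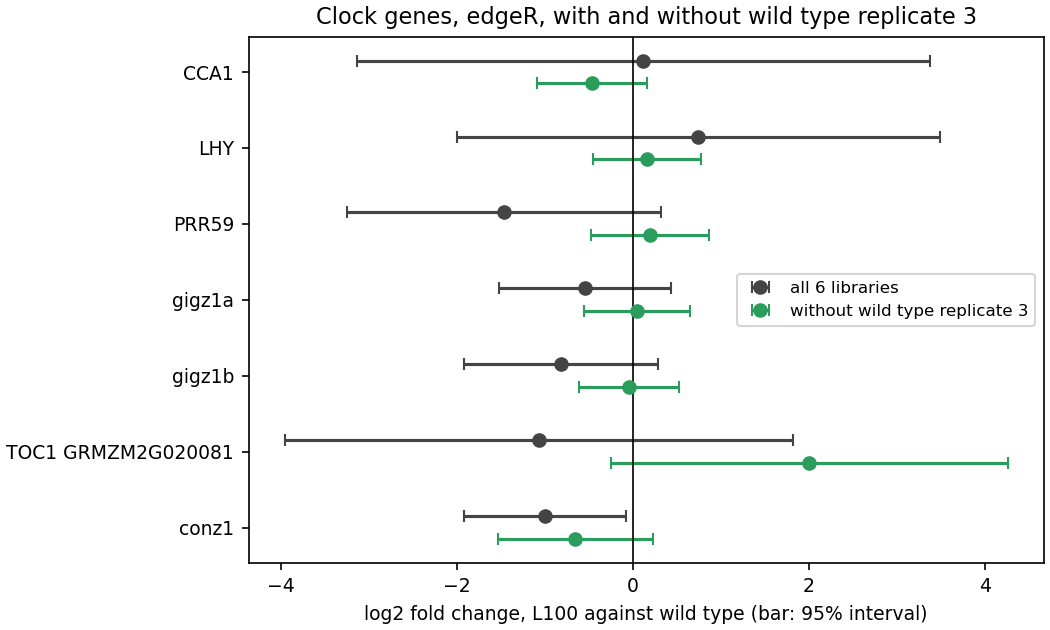
Log2 fold change of L100 against wild type for the 7 tested clock genes, from edgeR with all 6 libraries (grey) and without wild type replicate 3 (green); bars are 95% intervals. All 7 intervals are narrower without that library, that of conz1 the least so; only that of conz1 with all libraries leaves out 0.

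Genes of the pathway around the clock were read from a list of symbols for clock outputs and light receptors. A companion list of further core clock genes matched no gene beyond the members, as the reference table carries few maize symbols. Of 30 gene models in the output and light list, 14 were tested and none was called (0.834% of all genes). Of these 14, 10 were lower and 4 higher in L100, and their median log2 fold change was -0.43, against -0.03 over all tested genes. Without wild type replicate 3 the median of the list was -0.21, with 10 lower and 4 higher, and 4 genes changed sign. In wild type replicate 3, 6 of the 14 were the highest and 4 the lowest of all libraries, against 24.9% and 23.9% of all tested genes.

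The most abundant of these were phot1, COL8 and PhyB1. The blue light receptor gene phot1 (GRMZM2G001457) had 271, 92.3 and 283 CPM in wild type replicates 1 to 3 and 190, 83.3 and 113 CPM in L100, with wild type replicates 1 and 3 highest. COL8 (GRMZM2G114137), a CONSTANS-like gene, had 60.4 CPM in wild type replicate 3 and 96.8 to 114 CPM in all others. PhyB1 (GRMZM2G124532), a phytochrome gene, had 67.0 CPM in wild type replicate 3, within the 41.0 to 114 CPM of the others.

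Some listed genes were chosen after their values were seen. The CONSTANS-like gene COL5 (GRMZM2G075562) had 13.2, 6.01 and 149 CPM in wild type replicates 1 to 3, while the L100 replicates had 9.93, 7.31 and 7.08 CPM. It was the 1 listed gene at least 4-fold above each other library in wild type replicate 3. The phytochrome gene phyA2 (GRMZM2G181028) had 19.9 CPM there and 1.44 to 6.16 CPM elsewhere. The florigen-related genes ZCN8 (GRMZM2G179264) and ZCN7 (GRMZM2G141756), from the family of the flowering signal FT, had 2.76 and 0.335 CPM in wild type replicate 3. Their levels were about as low in wild type replicate 1 (2.36 and 0.616 CPM) and L100 replicate 1 (1.96 and 0.420 CPM), so the low level was not particular to that library. In wild type replicate 2 they had 8.43 and 6.13 CPM. They were highest in L100 replicate 2, with 19.6 and 15.3 CPM.

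**Figure D5:**
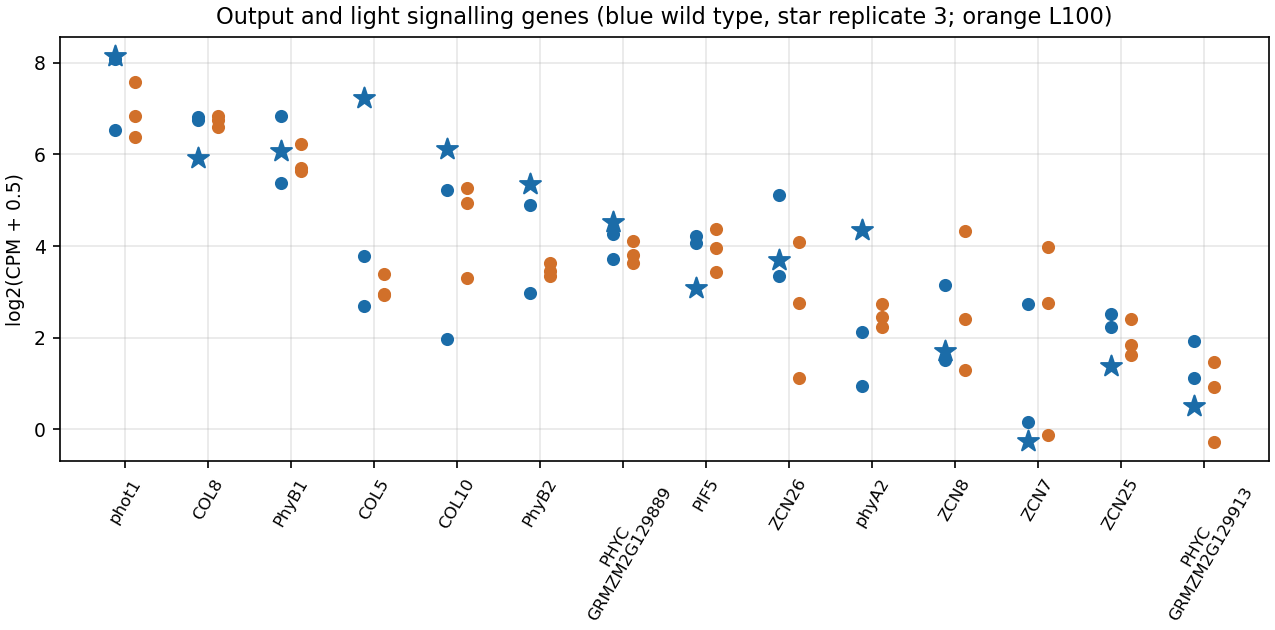
Level of the 14 tested output and light signalling genes in each library, as log2(CPM + 0.5), ordered by mean level; blue is wild type, with a star for replicate 3, and orange L100. The star stands far above the other points for COL5 (149 CPM) and phyA2 (19.9 CPM), and below them for COL8 (60.4 CPM).

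Genes with a symbol and a mean of at least 5 CPM, 1526 in number, were ranked by likeness to the clock patterns, as Pearson r of log2(CPM + 0.5) over the 6 libraries, with no test. Likeness to CCA1 and LHY was highest for PIP1-1 (GRMZM2G174807, r = 0.997), a plasma membrane aquaporin gene, with 24.5 CPM in wild type replicate 3 and 400 to 527 CPM elsewhere. PP2C25 (GRMZM2G155991) and bZIP9 (GRMZM2G092137) followed (r = 0.995 and 0.993). Over the 5 other libraries alone the 3 values of r were 0.450, 0.515 and 0.184, so the likeness rested mainly on wild type replicate 3.

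The TOC1 pair was most like MURE (GRMZM2G009070, r = 0.990), PP2C28 (GRMZM2G071087, r = 0.988), a protein phosphatase gene, and thi2 (GRMZM2G074097, r = 0.985), a gene of thiamine synthesis. The last had 1599 CPM in wild type replicate 3 and 1.15 to 8.42 CPM in the others. PRR59 was most like ERD3 (GRMZM2G144155, r = 0.993), and PP2C28 and MURE came next (r = 0.990 and 0.986). Over the other 5 libraries r was 0.858, 0.748 and 0.740 for the TOC1 pair and 0.700, 0.825 and 0.833 for PRR59, in the order given. The TOC1 genes had only 2 to 22 and 0 to 8 counts in these 5 libraries. All these genes were picked for high r with the same libraries included, so these values are no separate support for likeness. The GIGANTEA genes were most like CFM2 (GRMZM2G094072, r = 0.971), RIP1 (GRMZM2G052546, r = 0.970) and nfc101 (GRMZM2G137965, r = 0.961), with r of -0.444, 0.111 and 0.173 over the other 5 libraries.

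The conz1 pattern was most like sig3 (GRMZM5G830932), which belongs to the sigma factors of plastid transcription, mez3 (GRMZM2G043484), of the Polycomb group, and cki2 (GRMZM2G101613). Their r was 0.991, 0.980 and 0.970 over 6 libraries and 0.980, 0.976 and 0.931 over the 5 without wild type replicate 3. These genes too were picked for high r with the same 5 libraries included, so the later values are no separate support for likeness. Among the members themselves, none of 28 pairs passed over the 6 libraries (exact permutation test, two-sided, smallest adjusted p = 0.172 for Pearson and 0.922 for Spearman). Without the 2 libraries farthest from the median, which always included wild type replicate 3, the sign changed in 18 of 28 pairs, so no pooled correlation is given.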

How the data were processed

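RNA was taken from leaves with Trizol and made into Illumina libraries, per the labels' protocols. Bowtie 0.12.2 and the build B73 RefGen_v3 are named in the submitters' processing notes; what tool counted the reads is not given there. Per the file headers, the authors' tables hold an estimated count per gene, an FPKM value and a scaled signal (in each library the count multiplied by a constant). The deposited counts were whole within 0.001 for all but 0.225% to 0.399% of values and were rounded. The deposited FPKM served for levels between genes and the authors' signal was not used. Of the listed gene lengths, 88.7% were multiples of 3, and the deposited FPKM did not follow count over these lengths.

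The lines were compared with edgeR 4.0.16 in R 4.3.3 (quasi-likelihood test, TMM scaling, filterByExpr, no block, Benjamini-Hochberg over 18702 genes, threshold 0.05), a fit also tried on simulated data. Alternatives were DESeq2 1.42.0, limma-voom (limma 3.58.1), other scalings and filters, a replicate block and each library left out. A floor of 3 counts is 0.302 to 0.465 CPM before scaling. Members and lists were chosen with earlier results of these data known. Named genes were all members, called or the 3 most abundant genes of each list, and the 3 symbols most like each pattern; GRMZM2G175265, COL5, phyA2, ZCN7 and ZCN8 were added after their values were seen. Names came from RefSeq genes of a later assembly, Zm-B73-REFERENCE-NAM-5.0, in which 47.4% of gene IDs matched a record. No sequences were used here.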

Additional observations from a re-analysis of the deposited data

How the results depend on the processing

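Under the 15 alternatives no clock gene that was tested was called, with adjusted p from 0.162 to 0.998. The stricter filter left 5 clock genes, without CCA1 and GRMZM2G020081, and GRMZM2G148453 was tested only with no filter. Over all genes, 156 were called by edgeR, 611 with DESeq2, 10 with the stricter filter (at least 1 CPM in every library) and 5 with the replicate number as a block; with 1 library left out the count ran from 0 (without L100 replicate 2 or 3; 1295 and 1282 genes at an unadjusted p under 0.05) to 222. The replicate block called 0 clock genes. Deviations of same-numbered libraries correlated at 0.384, 0.348 and 0.0146. The crossed pairs were at -0.406 (wild type replicate 2, L100 replicate 1) and -0.301 (wild type replicate 1, L100 replicate 2). Wild type replicate 3 and L100 replicate 1 were at 0.074. Deviations were taken from the mean of the 3 libraries of a line. These correlations therefore depend on each other and are not separate signs of pairing. The labels name no pairing of libraries, and the cause of the correlations was not tested. Of 103 refitted log2 fold changes of members, 97 kept their sign. For TOC1 GRMZM2G020081 it was 0.041 with limma-voom and 0.94 with library weights, an alternative chosen after seeing the data; with 1 library left out it ran from -1.81 to 2.01. The corresponding ranges were -0.47 to 0.85 for CCA1, -1.89 to 0.20 for PRR59 and -0.81 to 0.045 for gigz1a, and each change of sign there came without wild type replicate 3. CCA1 was at 2.73 with limma-voom, 1.56 with library weights and 1.16 with the block (0.12 in edgeR without it), and LHY at 2.50, 1.58 and 1.76 (0.75); the cause was not tested. The morning minus evening difference kept its sign in all 6 libraries. In L100 replicates 1 to 3 it was 10.7, 9.80 and 9.88 with a pseudocount of 0.1 CPM, 8.18, 7.78 and 7.42 with 2 CPM, 8.56, 8.11 and 7.77 with FPKM, 8.91, 7.86 and 6.95 for CCA1 against GRMZM2G020081 alone, and 1.66, 1.38 and 1.53 against the GIGANTEA genes; the last was 1.55 and 1.78 in wild type replicates 1 and 2. Depth limits the TOC1 genes, at 0 to 22 counts outside wild type replicate 3.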
